A study of Homo sapiens with 12 samples.

Results

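The interferon-stimulated genes are those whose transcription rises when a cell receives an interferon signal, and 37 of them were described here across 4 groups of MDA-MB-231 cells. The members were taken by gene symbol from the 58051 genes listed in the raw count table, without use of their measured values, and all 37 were found. MDA-MB-231 is a mesenchymal-like line of triple-negative breast cancer, which lacks the oestrogen and progesterone receptors and HER2 amplification, and the line used here was a gift from another laboratory. The cells were transfected with pools of small interfering RNAs (siRNAs), each pool a mixture of siRNAs against a single gene. The siControl group received a non-targeting pool, siNELFA a pool against NELFA (a subunit of the negative elongation factor that holds RNA polymerase II near promoters), siYAP a pool against YAP1 (the coactivator of the Hippo pathway), and siNELFA+siYAP both pools. Each group held 3 libraries of ribosomal RNA-depleted total RNA. All 4 groups shared the DharmaFECT reagent and an siRNA concentration of 50 to 100 nM. The labels name 48 h and 72 h as times of RNA extraction and do not say which library belongs to which, while the study's methods give 72 h. Whether the double transfection held more siRNA in all than the single ones is not given in the sources used here. No untransfected or mock-transfected group was analysed here, so the response to transfection itself cannot be told apart from the resting level of the genes.

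Interferons bind receptors whose kinases activate transcription factors in the cytoplasm. Type I and type III interferons lead to a complex with STAT2 and IRF9 that binds the interferon-stimulated response element (ISRE) in promoters, while interferon gamma acts mainly through the gamma-activated sequence (GAS). Double-stranded RNA, including some siRNAs, can start the same program through the sensors RIG-I (DDX58) and MDA5 (IFIH1), which is why these genes are read as a check on siRNA experiments. The products hold back viruses at different steps: the IFIT proteins bind foreign RNA, the OAS enzymes make a messenger that activates RNase L, the MX GTPases trap viral capsids, and ISG15 is a ubiquitin-like protein that is attached to other proteins.

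Promoter sequences of 30 members were matched in RefSeq (GRCh38.p14), and IFIT2, MX2, OAS2, OASL, IRF7, USP18 and TRIM22 are given by name only. Each window runs from 250 bases before to 50 bases after a start site, and some genes have several. The ISRE core was searched as GAAA, any 2 bases and GAAA again, on both strands, so that TTTC, any 2 bases and TTTC also counted, and overlapping matches were allowed. It was found in 20 of the 30 matched members (66.7%), against 1195 of 27305 genes (4.38%) with a window in the same table. The GAS core was searched as TTCNNNGAA, which reads the same on both strands, and was found in 9 of the 30 members (30.0%), against 9.38% of all genes. A match is a description of letters, not evidence that a factor binds. The matches below are examples from members with the ISRE core, whether or not they passed in a comparison. STAT2, IFI35 and IRF1, which did pass in comparisons described below, had matched promoters without the ISRE core. Each is read on the strand of its gene, with the core in capitals and 10 bases on either side.
IFIT1, chr10:89392497-89392526, + strand: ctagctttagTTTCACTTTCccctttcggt
IFIT3, chr10:89332425-89332454, + strand: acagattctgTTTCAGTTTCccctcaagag
ISG15, chr1:1013380-1013409, + strand: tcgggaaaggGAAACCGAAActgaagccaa
OAS3, chr12:112938321-112938350, + strand: agaaagaaacGAAACTGAAAgcagggaatt
IFI44, chr1:78649761-78649790, + strand: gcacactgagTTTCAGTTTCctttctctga
ISG20, chr15:88638937-88638966, + strand: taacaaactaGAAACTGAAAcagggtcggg
IFI27, chr14:94110618-94110647, + strand: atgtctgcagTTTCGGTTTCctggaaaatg
BST2, chr19:17405741-17405770, - strand: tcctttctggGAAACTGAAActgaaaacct
TAP1, chr6:32853819-32853848, - strand: aggcggccgcTTTCGATTTCgctttcccct
IFI6, chr1:27672288-27672317, - strand: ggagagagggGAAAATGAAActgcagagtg
IFI44L, chr1:78620365-78620394, + strand: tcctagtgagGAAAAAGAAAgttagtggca

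In these cells most members were transcribed at a level that the counts resolve well, and interferon transcripts themselves were scarce. Library totals ran from 9608145 to 18803104 counts, and the 37 members together took 0.138 to 0.209% of them. Of the members, 36 had at least 10 counts in every library and 28 had at least 100, and all 37 passed the filter on low counts in each of the 6 comparisons. The lowest member count was 6, for RSAD2 (viperin), and the highest was 3996, for IFIT3. Among the genes for the interferons, IFNB1, IFNA1, IFNE and IFNG had 0 counts in all 12 libraries, where 3 counts, the limit that a count of 0 allows, stand for 0.155 to 0.325 CPM (counts scaled to the size of the library). These limits cover counting error only and take each count as a separate fragment. Most low counts were even, so fragments may have been counted more than once and the limits may be too low. IFNL1, a type III interferon, had 0 to 18 counts. NELFA lay between 25.3 and 27.9 CPM in siControl, between 7.11 and 9.96 CPM in siNELFA and between 6.35 and 8.20 CPM in siNELFA+siYAP. YAP1 lay between 247 and 302 CPM in siControl, between 37.7 and 46.2 CPM in siYAP and between 40.1 and 44.1 CPM in siNELFA+siYAP.

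Between genes, levels were compared per transcript length, as TPM (transcript abundance scaled for length and depth) over the 3 siControl libraries. IFI27, a small mitochondrial membrane protein, stood first at 179 ± 138 TPM (SD, n = 3), with a range of 83.4 to 338 TPM. BST2 (tetherin, which holds budding virus at the membrane) followed at 94.1 ± 37.5 TPM (SD, n = 3) and ISG15 at 83.9 ± 39.2 TPM (SD, n = 3). IFIT3 was at 71.9 ± 11.7 TPM, STAT2 at 57.4 ± 25.0 TPM and IFIT1 at 55.9 ± 14.6 TPM (SD, n = 3 each). UBE2L6, the enzyme that conjugates ISG15, was at 44.1 ± 9.41 TPM and IFIT2 at 38.6 ± 11.8 TPM (SD, n = 3 each). Neighbours in this order lay within each other's spread. The lowest were RSAD2, at 0.911 TPM, and USP18, which removes ISG15 from proteins, at 0.882 TPM. USP18 has a near-identical copy, USP41, so its counts are uncertain. Exons of 12 members overlap a gene on the other strand, among them PARP9 and DTX3L with each other and TAP1 with PSMB8-AS1. Those of 5 members overlap a gene on the same strand. Whether the counting used strand is not given in the sources used here.

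The largest differences among the members lay between replicate numbers, and these were of different kinds for different genes. Replicates 1, 2 and 3 of siControl, siNELFA and siYAP moved together: the deviations of same-numbered libraries from their group means correlated between groups at r = 0.650 to 0.889 over 12971 genes and at 0.566 to 0.937 over the 37 members. The siNELFA+siYAP libraries did not take part, with r between -0.0514 and 0.0276 over genes and between -0.354 and -0.0448 over members. With the group as a covariate, 28 of the 37 members (75.7%) differed between replicate numbers at an adjusted p under 0.05, against 45.4% of all tested genes. The members named below for their replicate difference were chosen after their values were seen.

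In 16 members (43.2%) replicate 3 was the highest library in all 3 groups, against 11.2% of all tested genes. IFIT2 was at 87.8, 59.3 and 125 CPM in siControl replicates 1 to 3, 61.4, 90.5 and 152 CPM in siNELFA, 51.9, 57.0 and 115 CPM in siYAP and 129, 119 and 131 CPM in siNELFA+siYAP. Replicate 3 was the highest in each of the first 3 groups, and the 3 double libraries lay together at about its level. IFI44 was at 34.3, 35.1 and 53.4 CPM in siControl replicates 1 to 3, 18.2, 47.4 and 74.6 CPM in siNELFA, 26.2, 42.9 and 75.5 CPM in siYAP and 69.95, 70.2 and 73.1 CPM in siNELFA+siYAP. Here too replicate 3 stood above replicates 1 and 2, and the double libraries lay together near replicate 3 of siNELFA and siYAP. SAMD9, an antiviral factor that restrains translation, was at 41.4, 69.0 and 95.8 CPM in siControl replicates 1 to 3, 29.5, 97.6 and 139 CPM in siNELFA, 28.0, 75.3 and 144 CPM in siYAP and 131, 125 and 119.7 CPM in siNELFA+siYAP. SAMD9 averaged 33.0 CPM over the replicate 1 libraries, 80.6 CPM over replicate 2 and 126 CPM over replicate 3, a 3.84-fold difference between replicates 3 and 1. RSAD2 averaged 0.887, 1.46 and 4.85 CPM over the same libraries. The other members of this kind were DDX58, IFIT1, IFIT3, OAS2, OAS3, OASL, ISG15, HERC6, USP18, IFI35, ISG20 and SAMD9L.

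In 13 members (35.1%) replicate 1 was the highest, against 24.9% of all tested genes, and in 8 (21.6%) it was the lowest, against 26.0%. IFI27 was at 121, 43.6 and 36.0 CPM in siControl replicates 1 to 3, 186, 59.6 and 45.5 CPM in siNELFA, 261, 60.2 and 60.4 CPM in siYAP and 64.6, 64.3 and 64.8 CPM in siNELFA+siYAP. Replicate 1 was the high library in each single-pool group, 4.01-fold above replicate 3 on the mean, and the groups overlapped widely. BST2 was at 96.4, 52.1 and 49.3 CPM in siControl replicates 1 to 3, 124, 67.1 and 59.2 CPM in siNELFA, 127, 64.4 and 57.0 CPM in siYAP and 63.2, 71.9 and 76.4 CPM in siNELFA+siYAP. Its replicate 1 libraries also stood above all others, and replicates 2 and 3 lay close to each other. UBE2L6 was at 40.3, 36.2 and 33.3 CPM in siControl replicates 1 to 3, 56.6, 44.5 and 37.5 CPM in siNELFA, 45.5, 37.1 and 35.9 CPM in siYAP and 42.6, 39.6 and 42.2 CPM in siNELFA+siYAP. Its order of replicates was that of BST2, with a smaller spread. HERC5, the ligase that attaches ISG15, averaged 116 CPM in replicate 1, 52.1 CPM in replicate 2 and 59.3 CPM in replicate 3, and MX2 averaged 17.1, 5.47 and 6.46 CPM. The other members of this kind were IFIH1, MX1, STAT2, IRF9, PARP14, IFI6, TRIM22 and TAP1. The remaining 8 members (IFIT5, OAS1, IRF1, IRF7, PARP9, DTX3L, IFI44L and XAF1) had neither order in all 3 groups. The 2 patterns cut across the families: HERC5 and HERC6, which adjoin on chromosome 4 (88378739 to 88506163), differed, since HERC6 was highest in replicate 3. Of the matched promoters, 8 of 12 in the first pattern and 8 of 11 in the second held the ISRE core, while the GAS core was in 1 of 12 and 6 of 11. These shares are descriptions of small sets whose genes were sorted by their own values.

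**Figure D1:**
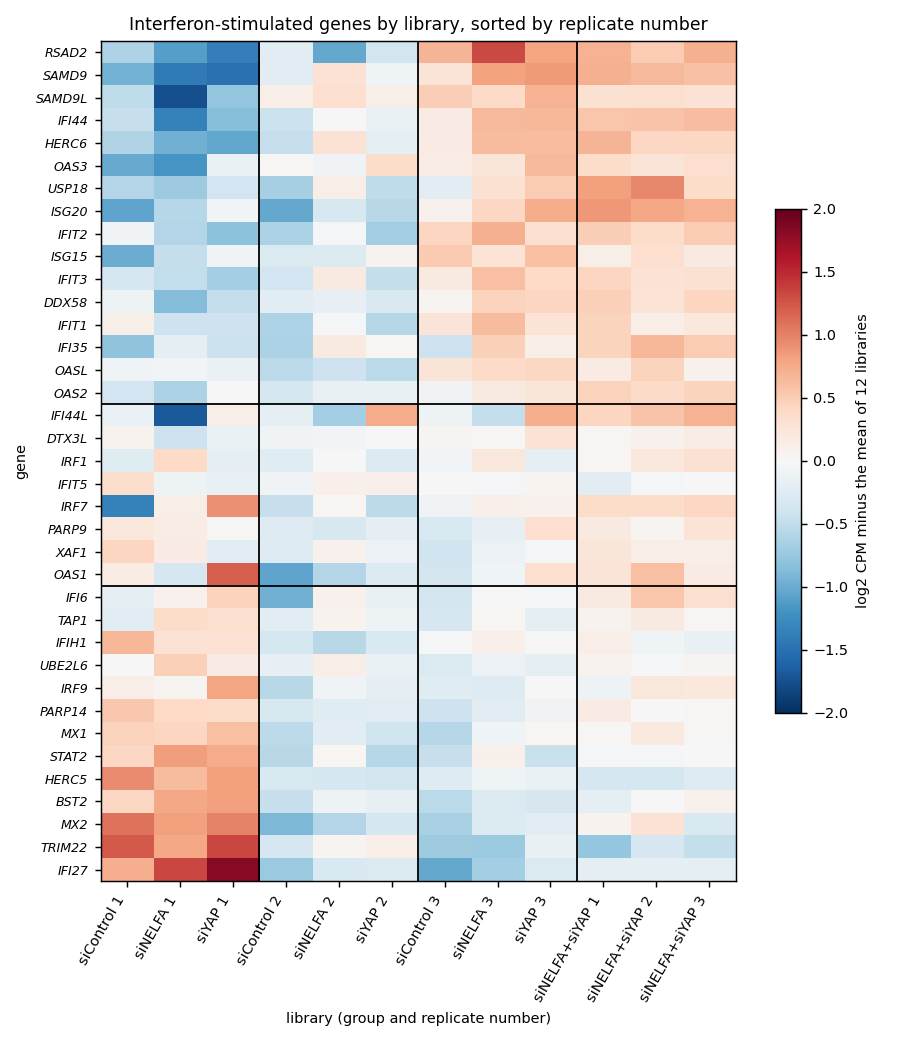
Heat map of the 37 members in the 12 libraries, ordered by replicate number, with siNELFA+siYAP last. Colour is log2(CPM + 0.5) minus the gene's mean over the 12 libraries. The 16 members of the upper block are highest in replicate 3 of siControl, siNELFA and siYAP, and the 13 of the lower block in replicate 1.

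The replicate 1 libraries of the 3 single-pool groups differed from the rest in more than interferon genes. CDH1 (E-cadherin) had 230, 599 and 169 counts in replicate 1 of siControl, siNELFA and siYAP, and 0 to 17 counts in the other 9 libraries. The summed level of 5 luminal and epithelial genes (ESR1, PGR, GATA3, EPCAM and CDH1) was 45.4 to 70.3 CPM in those 3 libraries and 10.6 to 16.3 CPM elsewhere. The sum of 5 leukocyte genes (PTPRC, CD3E, MS4A1, CD14 and LYZ) was 11.3 to 34.6 CPM against 2.47 to 6.83 CPM, with CD3E and MS4A1 at 0 counts in all 12 libraries and PTPRC at 4 or fewer. The 5 mesenchymal genes VIM, CD44, AXL, ZEB1 and MSN were present in every library, at a sum of 4165 to 5875 CPM. The part of these differences in the replicate 1 values of the members was not tested. Between replicates 3 and 2 alone, over the 6 libraries of the single-pool groups, 15 members were higher in replicate 3 and 0 were lower at an adjusted p under 0.05, against 6.00% higher and 5.35% lower of all tested genes. They held 3 of the 4 IFIT genes, with log2 differences of 0.80 (SE 0.07) for IFIT1, 0.94 (SE 0.07) for IFIT2 and 0.62 (SE 0.07) for IFIT3, and also OAS2, OAS3, OASL, DDX58, IFIH1, ISG15, ISG20, HERC6, IFI44, RSAD2, SAMD9 and SAMD9L. This comparison was added after the data were seen.

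The first comparison asked whether the NELFA pool changed the interferon-stimulated genes relative to the non-targeting pool. Without the replicate number in the fit, 0 of the 37 members passed an adjusted p of 0.05 in edgeR's quasi-likelihood test, against 0.00564% of all tested genes, and DESeq2 and limma also called 0. At an unadjusted p under 0.05 there were 2, IFI35 and TAP1, both higher, against 4.46% of all tested genes. With the replicate number as a block, which removes the shared replicate differences, 4 members rose and 0 fell, against 2.76% of all tested genes that rose and 5.21% that changed at all. The 4 were STAT2, IFI35, IFI27 and TAP1.

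STAT2, the transducer in the ISRE-binding complex, was at 164, 83.4 and 89.5 CPM in siControl replicates 1 to 3, 219.6, 126 and 132 CPM in siNELFA, 205, 82.7 and 90.5 CPM in siYAP and 119, 119 and 122 CPM in siNELFA+siYAP. Within each replicate number the siNELFA library lay above siControl, although siControl replicate 1 was above siNELFA replicates 2 and 3. The log2 fold change was 0.50 (SE 0.34) without the block (adjusted p = 0.9996) and 0.53 (SE 0.10) with it (adjusted p = 0.0105). IFI35, a partner of NMI in cytokine signalling, was at 6.28, 7.10 and 8.38 CPM in siControl replicates 1 to 3, 9.96, 12.9 and 15.9 CPM in siNELFA, 8.27, 11.6 and 12.3 CPM in siYAP and 15.5, 18.2 and 16.3 CPM in siNELFA+siYAP. All siNELFA libraries lay above all siControl libraries. The log2 fold change was 0.83 (SE 0.27) without the block (adjusted p = 0.9996) and 0.83 (SE 0.19) with it (adjusted p = 0.0228). TAP1, which carries peptides to class I molecules, was at 82.9, 82.6 and 76.6 CPM in siControl replicates 1 to 3, 125, 102 and 99.5 CPM in siNELFA, 122, 90.2 and 85.0 CPM in siYAP and 102, 109 and 99.2 CPM in siNELFA+siYAP. The siNELFA libraries again did not overlap siControl. The log2 fold change with the block was 0.42 (SE 0.11), at an adjusted p of 0.0399. IFI27, whose libraries are given above, was higher in siNELFA within each replicate number, at 0.47 (SE 0.11) with the block and an adjusted p of 0.0268. In the fit without the block, its log2 fold change of 0.54 turned to -0.34 when siNELFA replicate 1 was left out.

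Across the role groups, all 4 transcription factors (STAT2, IRF1, IRF7 and IRF9) had a positive log2 fold change in siNELFA with the block, and 1 of them rose. IRF1, a factor induced by interferon gamma, was at 48.3, 48.1 and 55.1 CPM in siControl replicates 1 to 3, 75.8, 57.2 and 67.1 CPM in siNELFA, 50.4, 47.5 and 49.9 CPM in siYAP and 58.9, 66.4 and 71.0 CPM in siNELFA+siYAP. Its siNELFA libraries lay above all siControl libraries, and with the block its log2 fold change was 0.39 (SE 0.12) at an adjusted p of 0.0883. Of the 5 IFI genes 2 rose, and IFI6 was at 13.6, 7.82 and 12.01 CPM in siControl replicates 1 to 3, 16.6, 16.6 and 15.6 CPM in siNELFA, 21.7, 14.0 and 15.2 CPM in siYAP and 17.8, 23.1 and 19.6 CPM in siNELFA+siYAP, with siNELFA above siControl throughout and a log2 fold change of 0.59 (SE 0.20, adjusted p = 0.106). The RNA sensors, IFIT genes, OAS genes, MX genes, the ISG15 system and the PARP9 group had 0 members past the threshold. Libraries of the groups did not overlap for 5 members that were higher in siNELFA (IRF1, IRF7, IFI6, IFI35 and TAP1) and 1 that was lower (IFI44L), against 12.2% of all tested genes in either direction.

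The median log2 fold change of the members was 0.16 without the block, with 25 positive and 12 negative, and that of all tested genes was 0.00. The members ran from -0.84 (IFI44L) to 0.83 (IFI35). On log2(TPM + 1) the median of the members was -0.03, with 16 positive and 21 negative, and that of all genes was -0.17, so that the sign of the members' median depended on the scaling and its distance from all genes was 0.13. When replicate 1 was left out of the groups, a choice made after the data were seen, the blocked fit called 16 members, all higher (43.2%), against 7.99% of all tested genes that rose and 15.7% that changed. The 4 members above were among the 16, with IFIT1, IFIT2, IFIT3, IFI6, IFI44, IRF1, DDX58, MX1, HERC6, BST2, ISG20 and SAMD9. That blocked fit had 2 libraries in each group, so its error came almost wholly from a spread shared over all genes. Its p-values hardly reflect the spread of each member between its own libraries. With 2 libraries in each group and replicate 1 left out, the fit without the block called 0, against 0.0996% of all tested genes. At an unadjusted p under 0.05 there were 10 members (27.0%), all higher, against 2576 of 18077 tested genes in either direction.

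**Figure D2:**
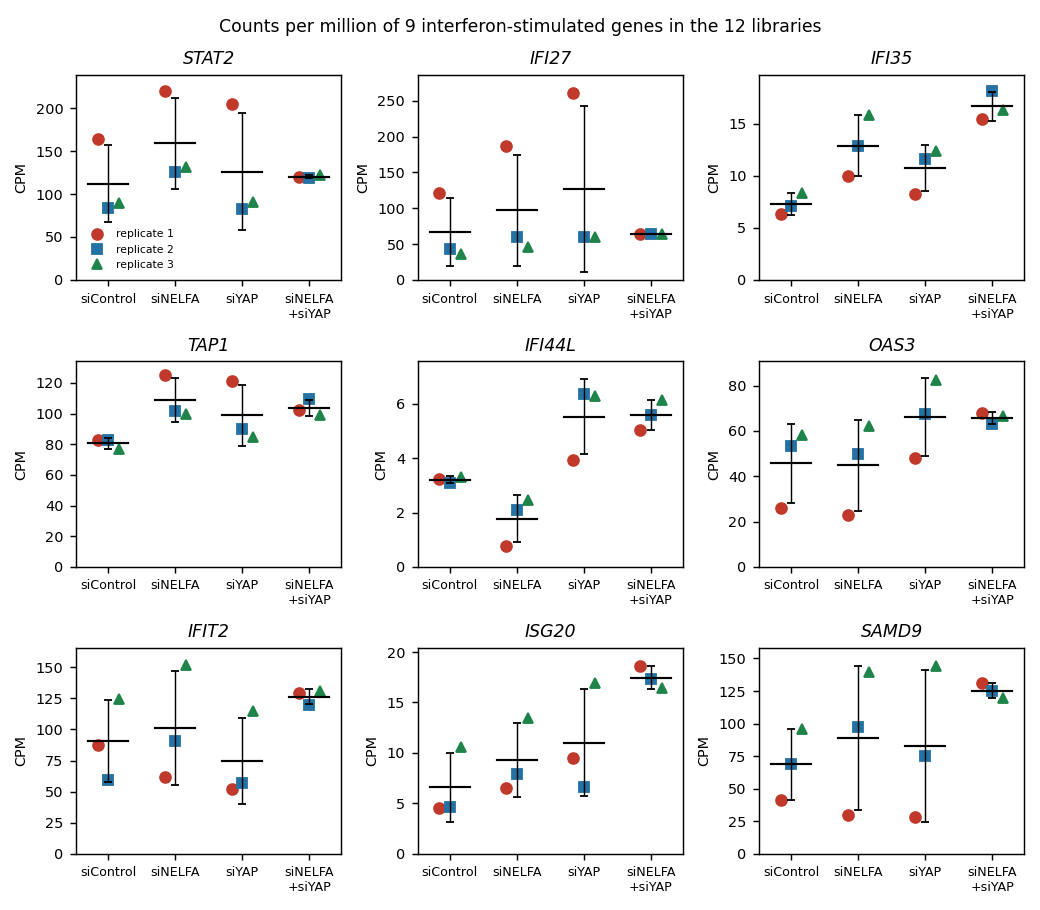
Level of 9 members (CPM, linear axis from 0) in the 4 groups, with points for the libraries marked by replicate number, bars for the mean and error bars for the SD (n = 3). Replicate 1 is the high library of IFI27 and STAT2 and the low one of SAMD9 in siControl, siNELFA and siYAP, while the siNELFA+siYAP libraries lie together.

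The YAP pool gave 0 members past the threshold against siControl in both fits. Without the block 0 of 37 passed in edgeR's quasi-likelihood test, against 0.00578% of all tested genes, and DESeq2 and limma called 0. At an unadjusted p under 0.05 there was 1 (IFI44L, higher), against 1.30% of all tested genes. With the block 0 passed, against 0.0173% of all tested genes, and 10 had an unadjusted p under 0.05, against 9.11%. Few genes of any kind passed in this comparison, so that a count of 0 members does not show an absence of change. The median log2 fold change of the members was 0.21, with 28 positive and 9 negative, from -0.29 (IFIT2) to 1.00 (OAS1).

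The largest of these values belonged to a few genes. IFI27 had a log2 fold change of 0.77 (SE 0.14) with the block and an adjusted p of 0.314, and its siYAP library lay above siControl in each of the 3 replicate numbers. IFI44L, a neighbour of IFI44 on chromosome 1, was at 3.25, 3.08 and 3.31 CPM in siControl replicates 1 to 3, 0.784, 2.08 and 2.45 CPM in siNELFA, 3.94, 6.35 and 6.29 CPM in siYAP and 5.05, 5.58 and 6.13 CPM in siNELFA+siYAP, on counts of 10 to 114. Every siYAP library lay above every siControl library, and every siNELFA library lay below. Its log2 fold change in siYAP was 0.78 (SE 0.27) with the block (adjusted p = 0.534). OAS1 was at 4.33, 1.60 and 2.90 CPM in siControl replicates 1 to 3, 2.98, 2.42 and 3.64 CPM in siNELFA, 9.52, 3.14 and 4.99 CPM in siYAP and 4.72, 6.15 and 4.41 CPM in siNELFA+siYAP, on counts of 29 to 99. Within each replicate number siYAP was above siControl, but siControl replicate 1 exceeded siYAP replicate 2. The groups did not overlap for 3 members, IFI6, IFI44L and TAP1, all higher, against 7.75% of all tested genes. With replicate 1 left out, the blocked fit called 4 members, all higher, OAS3 (0.43), IFI27 (0.61), IFI44 (0.41) and SAMD9 (0.38 on the log2 scale), against 1.62% of all tested genes. It too had 2 libraries in each group, and it leaned less on the shared spread than the same fit for siNELFA. The counts of these 2 fits are therefore not like for like.

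Set directly against each other, the NELFA and YAP pools differed in both directions. With the block, 5 members were higher in siNELFA (IFIT1, IFIT2, IFIT3, STAT2 and IRF1) and 4 were higher in siYAP (OAS3, ISG15, IFI27 and IFI44L). Without the block 15 log2 differences were positive and 22 negative, and on log2(TPM + 1) 11 and 26 were. The 9 members compare with 15.8% of all tested genes that passed in the same fit, where 24.3% of the members did. Without the block 0 members passed, against 0.0116% of all tested genes, and DESeq2 and limma called 0. At an unadjusted p under 0.05 there were 2 (IFI44L and IRF1), against 5.63% of all tested genes.

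IFIT1 was at 88.2, 52.5 and 96.6 CPM in siControl replicates 1 to 3, 60.6, 79.0 and 126 CPM in siNELFA, 60.6, 54.4 and 98.1 CPM in siYAP and 110.3, 88.7 and 94.4 CPM in siNELFA+siYAP. In replicate 1 the single pools were level, and in replicates 2 and 3 siNELFA was the higher. The log2 difference, siNELFA minus siYAP, was 0.31 (SE 0.10) for IFIT1, at an adjusted p of 0.0374, and 0.45 (SE 0.10) for IFIT2, at an adjusted p of 0.00210. IFIT3 was at 118, 115 and 169 CPM in siControl replicates 1 to 3, 107, 169 and 227 CPM in siNELFA, 92.9, 107 and 196 CPM in siYAP and 201, 184 and 184 CPM in siNELFA+siYAP. The siNELFA library was above the siYAP library of the same number for all 3 numbers, at a log2 difference of 0.36 (SE 0.09) and an adjusted p of 0.00830. The IFIT genes lie together on chromosome 10 (89283694 to 89421605), and the remaining one, IFIT5, had a log2 difference of -0.01 (SE 0.11, adjusted p = 0.954). STAT2 differed by 0.42 (SE 0.09, adjusted p = 0.00335) and IRF1 by 0.43 (SE 0.10, adjusted p = 0.00410). For IRF1 alone did all siNELFA libraries lie above all siYAP libraries, and for IFI44L alone all below, against 12.5% of all tested genes in either direction.

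In the other direction, OAS3 was at 25.8, 53.1 and 58.2 CPM in siControl replicates 1 to 3, 22.7, 49.7 and 62.1 CPM in siNELFA, 48.0, 67.6 and 82.5 CPM in siYAP and 67.7, 62.8 and 66.5 CPM in siNELFA+siYAP. In each replicate number siYAP was above siNELFA, with the widest gap in replicate 1, at a log2 difference of -0.61 (SE 0.12) and an adjusted p of 0.000708. OAS1 and OAS2, its neighbours on chromosome 12 (112905856 to 113011723), had -0.83 (SE 0.29) and -0.22 (SE 0.12) and did not pass (adjusted p = 0.0560 and 0.227). ISG15 was at 20.3, 33.3 and 59.0 CPM in siControl replicates 1 to 3, 29.2, 33.7 and 49.4 CPM in siNELFA, 38.9, 42.7 and 62.0 CPM in siYAP and 44.3, 51.7 and 46.0 CPM in siNELFA+siYAP. Here siYAP was again above siNELFA in each number, and replicate 3 was the highest library of every single-pool group. The log2 difference was -0.35 (SE 0.10) for ISG15 (adjusted p = 0.0225), -0.30 (SE 0.10) for IFI27 (adjusted p = 0.0333) and -1.67 (SE 0.31) for IFI44L (adjusted p = 0.000547). Without replicate 1, 8 of these 9 members passed again in the same direction, all but IFI27, against 14.8% of all tested genes. That fit also took its error almost wholly from a spread shared over all genes. The log2 difference of IFI27 in the fit without the block turned from -0.38 to 0.69 when siYAP replicate 1 was left out.

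**Figure D3:**
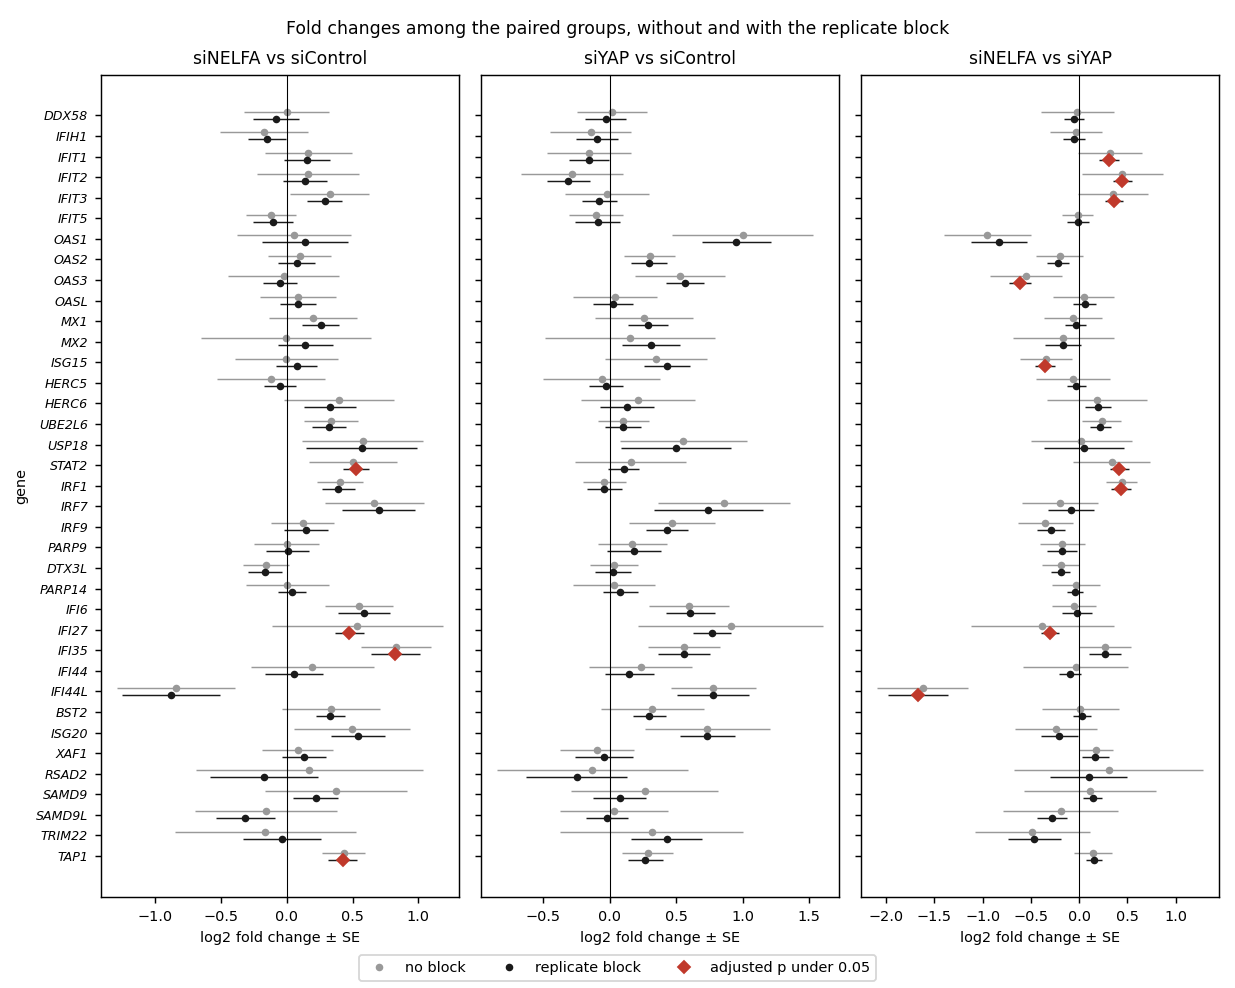
Log2 fold change of the 37 members for siNELFA against siControl, siYAP against siControl and siNELFA against siYAP, with bars of 1 SE. Grey marks the fit without the replicate number, black the fit with it as a block, and red diamonds an adjusted p under 0.05 with the block, which number 4, 0 and 9.

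In the double transfection most members lay above siControl, with 31 of 37 at a positive log2 fold change, but which of them passed depended on how its libraries were matched to siControl. The 3 siNELFA+siYAP libraries were alike: their biological coefficient of variation was 0.0595, against 0.325 in siControl, 0.305 in siNELFA and 0.318 in siYAP, and 0.119 to 0.146 between replicates 2 and 3 of those groups. Their titles number them 1 to 3, while their library names all carry the number 1 with a second index, and whether they came from separate cultures is not clear. The SE and p-values of every comparison with them may therefore rest on technical spread. Over the members, the root mean square log2 distance of a double library was 0.918 to 0.967 from the mean of the replicate 1 libraries, 0.578 to 0.639 from replicate 2 and 0.273 to 0.344 from replicate 3. Over all genes averaging at least 50 counts the order was the same. There the distances were 0.732 to 0.743 from replicate 1, 0.370 to 0.395 from replicate 2 and 0.257 to 0.284 from replicate 3. In a chi-square test of their counts over genes, double libraries 1 and 3 differed by 2.74 per degree of freedom. Double libraries 1 and 2 differed by 10.3, and 2 and 3 by 12.8. Replicates 2 and 3 differed by 15.95 in siControl, 13.1 in siNELFA and 10.2 in siYAP. Pairs with replicate 1 in those groups differed by 71.3 to 101. By this measure double library 2 stood about as far from the other double libraries as replicates 2 and 3 of the single-pool groups from each other. An effect of the double transfection and any difference between its libraries and siControl other than the siRNA cannot be told apart in these data. The same siControl libraries served this comparison and the comparisons of the single pools above.

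Against all 3 siControl libraries, 0 of 37 members passed in edgeR's quasi-likelihood test, against 0.428% of all tested genes. IFI35 was nearest, at a log2 fold change of 1.18 (SE 0.18) and an adjusted p of 0.0516. At an unadjusted p under 0.05, 14 members were higher and 0 lower, against 8.27% of all tested genes that were higher and 18.5% in either direction. They were 4 of the 5 IFI genes (IFI6, IFI35, IFI44 and IFI44L), IRF1 and IRF7, USP18 and HERC6 of the ISG15 system, OAS2, IFIT3, DDX58, ISG20, SAMD9 and TAP1. DESeq2 called 7, all higher (OAS2, USP18, IFI6, IFI35, IFI44, ISG20 and SAMD9), against 2.35% of all genes with an adjusted p in DESeq2 that were higher and 5.88% in either direction. Limma on log2(TPM + 1) called 0. The median log2 fold change of the members was 0.32, with a range from -0.95 (TRIM22) to 1.47 (USP18), and that of all tested genes was -0.03.

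OAS2 was at 38.1, 38.9 and 47.4 CPM in siControl replicates 1 to 3, 31.8, 44.7 and 56.3 CPM in siNELFA, 49.6, 44.9 and 59.1 CPM in siYAP and 68.5, 64.9 and 67.8 CPM in siNELFA+siYAP. All 3 double libraries lay above every other library, at a log2 fold change against siControl of 0.68 (SE 0.13) and an adjusted p of 0.0735. ISG20, an RNA exonuclease, was at 4.55, 4.62 and 10.6 CPM in siControl replicates 1 to 3, 6.51, 7.90 and 13.4 CPM in siNELFA, 9.52, 6.63 and 16.9 CPM in siYAP and 18.6, 17.3 and 16.4 CPM in siNELFA+siYAP. The double libraries lay above siControl throughout, and siYAP replicate 3 reached their range, at a log2 fold change of 1.38 (SE 0.34, adjusted p = 0.109). USP18 was at 1.19, 1.10 and 1.66 CPM in siControl replicates 1 to 3, 1.02, 2.25 and 2.62 CPM in siNELFA, 1.44, 1.28 and 3.08 CPM in siYAP and 3.97, 4.44 and 2.74 CPM in siNELFA+siYAP, on counts of 11 to 62. The lowest double library lay above all siControl libraries but below siYAP replicate 3, at a log2 fold change of 1.47 (SE 0.33, adjusted p = 0.0944). IRF7, the factor that amplifies type I interferon genes, was at 2.27, 4.62 and 6.21 CPM in siControl replicates 1 to 3, 7.14, 6.75 and 7.05 CPM in siNELFA, 12.8, 4.42 and 7.03 CPM in siYAP and 8.61, 8.59 and 8.93 CPM in siNELFA+siYAP. The double libraries lay above siControl and siNELFA and below siYAP replicate 1, at a log2 fold change of 0.96 (SE 0.34, adjusted p = 0.202). IFI44, given above, had 0.78 (SE 0.19, adjusted p = 0.105). In all, 16 members were above siControl without overlap and 0 below, against 15.9% of all tested genes above.

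The choice of siControl library changed the picture. All 3 double libraries lay above siControl replicate 2 for 34 members and below it for 0, above siControl replicate 3 for 26 and below for 3, and above siControl replicate 1 for 22 and below for 11. Of all tested genes, 44.3% lay above and 40.1% below replicate 1, 36.7% above and 36.9% below replicate 2, and 34.6% above and 34.8% below replicate 3. Without siControl replicate 1, 25 members passed, all higher, against 11.5% of all tested genes that rose and 24.4% that changed. The double libraries were then matched by their library names to number 1, in a fit of group and number over all 12 libraries. There 19 members rose and 8 fell, against 22.4% of all tested genes that rose, 21.5% that fell and 43.9% that changed. Between these 2 settings 13 members were called higher in both: DDX58, IFIT3, OAS2, OAS3, HERC6, USP18, IRF1, IFI6, IFI35, IFI44, IFI44L, ISG20 and SAMD9. Another 5 were called in opposite directions: MX2, STAT2, PARP14, IFI27 and BST2. STAT2, for example, had a log2 fold change of 0.09 (SE 0.26) against all siControl libraries, 0.47 (SE 0.07) without replicate 1 and -0.49 (SE 0.11) matched by library name. IFI27 had -0.07 (SE 0.44), 0.69 (SE 0.09) and -1.08 (SE 0.12) in the same order. The shares of all tested genes called alike or in opposite directions in both settings were not counted, so the 13 and the 5 are lists only.

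**Figure D4:**
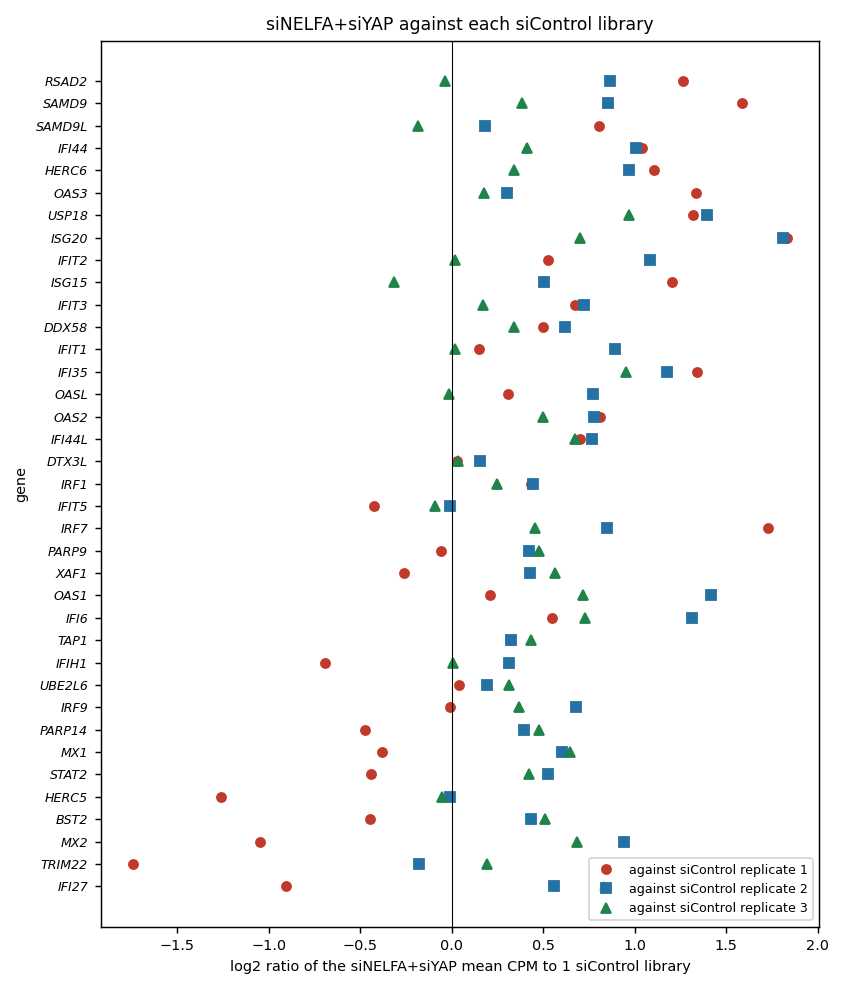
Log2 ratio of the mean CPM of the 3 siNELFA+siYAP libraries to each siControl library (0.5 CPM added to both) for the 37 members. Against siControl replicate 2 nearly all members lie above 0, while against replicate 1 members such as IFI27, MX2 and STAT2 lie below.

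Against the single pools, the double transfection had 0 members past the threshold in edgeR's quasi-likelihood test, against 0.00573% of all tested genes for siNELFA and 0.0350% for siYAP. DESeq2 and limma called 0 as well, and 4 members against siNELFA and 5 against siYAP had an unadjusted p under 0.05, as did 6.62% and 15.5% of all tested genes. The libraries did not overlap for 9 members higher and 1 lower (STAT2) against siNELFA, where 15.1% of all tested genes did not, and for 5 higher and 1 lower (TRIM22) against siYAP, where 26.5% did not. Without the replicate 1 libraries, IFI44L was higher in the double than in siNELFA by 1.30 (SE 0.26) on the log2 scale, the 1 call in that fit, against 1.25% of all tested genes. Against siYAP the same choice gave 5 calls, all higher (OAS2, STAT2, IRF1, IFI6 and IFI35), against 16.5% of all tested genes. A test of whether the effect of one pool depended on the other called 0 members, and 0 of all 18525 tested genes. At an unadjusted p under 0.05 there were 0 members, against 1.76% of all tested genes. Because no gene of any kind passed, the count of 0 members does not show that the effects were independent.

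One test over all 4 groups without the block called 0 members, against 0.157% of all tested genes, and DESeq2 called 2, against 3.17%. At an unadjusted p under 0.05 there were 7, against 9.78% of all tested genes. With the replicate number as a block over 12 libraries it called 3 (IFI35, IFI44L and ISG20), against 2.39%. This block matched the double libraries by title number, which they did not follow, so it was misplaced for that group. Over the 9 paired libraries of siControl, siNELFA and siYAP the blocked test called 6 (OAS3, STAT2, IRF1, IFI27, IFI35 and IFI44L, or 16.2% of the members), against 7.58% of all tested genes.

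The wider pathway was read from a list of 69 further genes in 4 classes: 7 ligands, 13 receptors and kinases, 15 nucleic acid sensing genes and 34 further induced genes. Of these, 59 passed the filter on low counts in the comparisons among siControl, siNELFA and siYAP. In siNELFA against siControl 0 of the 59 passed without the block (edgeR, 4 at an unadjusted p under 0.05, against 4.46% of all tested genes). With the block 5 rose, where 2.76% of all tested genes rose and 5.21% changed: STING1, the adaptor of DNA sensing (0.98), the immunoproteasome subunit PSMB9 (0.68), the coactivator HELZ2 (0.65), the secreted LGALS3BP (0.45) and TAP2, the partner of TAP1 (0.42). The helicase DDX60 fell by 0.74 on the log2 scale. In siYAP against siControl 0 passed in edgeR, with 12 at an unadjusted p under 0.05 in the fit with the block, against 9.11% of all tested genes. In siNELFA+siYAP against siControl 0 of 61 passed without the block. At an unadjusted p under 0.05 in that edgeR fit 14 were higher and 3 lower, against 18.5% of all tested genes. In siNELFA against siYAP 0 passed without the block (edgeR, 2 at an unadjusted p under 0.05, against 5.63% of all tested genes). With it 14 passed, where 15.8% of all tested genes did: 9 were higher, among them IFNGR1 (0.60), the kinase TBK1 (0.43), GBP3 (0.47) and STING1 (0.39), with JAK1, GBP1, PSMB9, TAP2 and DDX60L, and 5 were lower, SOCS1, the feedback inhibitor of JAK kinases (-0.95), DDX60 (-0.83), GBP2 (-0.53), IFITM1 (-0.51) and IFI16 (-0.27).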

How the data were processed

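The authors sequenced ribosomal RNA-depleted, stranded paired-end libraries of MDA-MB-231 cells, aligned them with STAR to GRCh38 and counted them with featureCounts. The methods describe independent biological replicates, but the library names of the siNELFA+siYAP libraries leave it unclear whether these came from separate cultures, and p-values measure only the spread between these libraries, which may be technical there. The deposited counts per gene are raw, and the TPM values per gene are the authors' own scaling for length and depth. The deposited tables also hold 12 FPKM columns, not used here. Whether counting used strand or read pairs is not given in the sources used here, and 78.7 to 82.4% of gene counts from 1 to 20 were even in each library, so that counts may not be independent fragments. Intervals on counts cover counting error only.

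Counts were tested with edgeR 4.0.16 (R 4.3.3), with TMM factors, filterByExpr at a minimum count of 10 and a minimum total of 15, the quasi-likelihood F test on the 6 libraries of each comparison, and Benjamini-Hochberg adjustment over all tested genes. Adjusted p-values in the text are from this test, and SE is the log2 fold change divided by the root of F. CPM were scaled by TMM over 12 libraries. The replicate number was used as a block among siControl, siNELFA and siYAP, where the deviations of same-numbered libraries correlated at r = 0.650 to 0.889 and the labels give the numbers. Blocks that included the double libraries, by title number or by library name, were alternatives. Alternatives were DESeq2 1.42.0, limma 3.58.1 on log2(TPM + 1) and log2(TPM + 0.1), RLE factors, a minimum count of 3, no filter, 1 fit over 12 libraries, and leaving out each library. Leaving out replicate 1 of siControl, siNELFA and siYAP, and the comparison of replicates 3 and 2, were added after seeing the data. On simulated counts for siNELFA against siControl (17349 genes) with replicate shifts, 200 genes were given a change of size 2 on the log2 scale. Of these, 35% were recovered without the block and 91.5% with it. In the data, the members' log2 fold changes with the block ran only from -0.88 to 0.83 in this comparison. Recovery of changes of that size was not tested. How recovery depends on the closeness of the shifts between same-numbered libraries was not tested either.

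The members and the lists were chosen with earlier results of these data known. Members were described in full if past the threshold in any comparison (with or without the block), among the 5 smallest p against siControl, or among the 8 highest TPM in siControl. One gene of the pathway list is not reported here. Promoters are RefSeq, GRCh38.p14, and gene spans are from GENCODE 44. Levels of interferon-stimulated genes in a bulk library do not tell more cells with a response from a stronger response per cell.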

Additional observations from a re-analysis of the deposited data

How the results depend on the processing

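The counts of members past the threshold changed most with the handling of replicates, and with 1 filter and 1 tool for the double transfection. For siNELFA against siControl, 0 members passed, 4 with the replicate block and 16 with the replicate block without replicate 1. For siYAP against siControl, 0 passed, and 4 with the replicate block without replicate 1. For siNELFA against siYAP, 0 passed, 9 with the replicate block and 8 with it without replicate 1. The blocked fits without replicate 1 had 2 libraries in each group and leaned on a spread shared over genes, to unlike degrees. For siNELFA+siYAP against siControl, 0 passed, 2 with no filter on low counts, 7 with DESeq2, 27 with the block by library name and 25 without replicate 1, and leaving out 1 library gave 0 to 25 (25 without siControl replicate 1, 2 without siControl replicate 3). Against siNELFA the double had 26 with the block by library name and 1 without replicate 1, and leaving out 1 library gave 0 to 1 (1 without siNELFA replicate 1). Against siYAP it had 26 and 5, and leaving out 1 library gave 0 to 5 (5 without siYAP replicate 1, 1 without siYAP replicate 3). The block by library name called 41.1% of all tested genes against siNELFA and 43.5% against siYAP. Shares of all tested genes were not counted for the fit with no filter, or without siControl replicate 3 or siYAP replicate 3. The calls in those fits are therefore counts only. The replicate block by title number gave 0 in the 3 comparisons of the double transfection and in siYAP against siControl. Over the 4 groups, 0 passed, 3 with the replicate block by title number, 6 over the 9 paired libraries with the replicate block and 2 with DESeq2. The 28 members that differed between replicate numbers became 15 without replicate 1. Among the log2 fold changes recomputed without each library (those of members named in a comparison for passing the threshold or for a small p), 3 turned sign without the block: IFI27 in siNELFA against siControl (-0.34 to 1.29, with -0.34 without siNELFA replicate 1), IFIT1 in siNELFA against siYAP (-0.023 to 0.63, with -0.023 without siNELFA replicate 3) and IFI27 in siNELFA against siYAP (-1.26 to 0.69, with 0.69 without siYAP replicate 1). IFI27 in siNELFA+siYAP against siControl, outside those, went from -0.07 to 0.69 without siControl replicate 1. The cause of these changes was not tested. Counts limit USP18, RSAD2, IFI44L, OAS1 and TRIM22 most.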
